A study of Macaca fascicularis with 64 samples.

Results

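The genes described here are 49 listed genes of the lysosome and of autophagy, chosen by name and not by their values, and followed through the α-, β-, δ- and PP-cells of young and old cynomolgus monkeys. Of the 49 genes, 44 had a row among the 21041 macaque genes counted, while CTSL, GLA, GUSB, ATP6V1A and GABARAPL1 were not analysed here. Single islet cells were picked from the pancreas of 16 monkeys of the species Macaca fascicularis, of which 4 were young females, 4 young males, 4 old females and 4 old males (8 young, 8 old). The labels name no transgene or drug for any monkey, and the study describes all of them as healthy. Each monkey gave 4 libraries, and 5908 of 6141 cells had over 800 detected genes and over 10000 unique molecular identifiers (UMIs, tags that count each captured transcript once).

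A cell was assigned by the highest of the 4 hormones, which gave 4503 α-cells (glucagon, GCG), 1219 β-cells (insulin, INS), 112 δ-cells (somatostatin, SST) and 74 PP-cells (pancreatic polypeptide, PPY). All 16 monkeys had at least 5 α-cells and 5 β-cells, 11 monkeys (7 young, 4 old) had at least 5 δ-cells, and 6 monkeys (2 young, 4 old) had at least 5 PP-cells. Old female 2 alone gave 33 of the PP-cells, and both young monkeys with enough PP-cells were male. Retained cells held between 10016 and 696893 UMIs. The median depth per cell was 67388 UMIs over young monkeys and 69374 over old monkeys, with young male 3 lowest at 41389. The depths of the age groups did not differ by a two-sided exact permutation test (p = 0.609, n = 8 and 8). No cell name occurred in more than 1 library.

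The types carried their markers. IAPP was at 53.3 CPM (UMIs of a gene per 1000000 UMIs of the sum, unscaled for these markers) in α-cells and 2700 in β-cells, IRX2 at 475 and 40.4, HHEX at 357 in δ-cells against 2.41 or less in the others, and UGT2B20 at 159 in PP-cells against 1.99 or less. Each type also held RNA of the other hormones. GCG was at 77868 ± 13247 CPM in α-cells and 23398 ± 7913 in β-cells (TMM-scaled, mean ± SD, n = 16 each), and INS at 65648 ± 14016 in β-cells and 7296 ± 3569 in α-cells. The part of this foreign hormone RNA in the differences below was not tested. Calls that were lost when cells with 2 strong hormones were left out are named with their results.

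Lysosomes are acidic compartments in which hydrolases digest material that arrives by endocytosis or by autophagy. Autophagy wraps cytoplasm in a double membrane, which grows with the help of the ATG proteins, carries lipid-linked proteins of the ATG8 family on its surface, takes up cargo through receptors that bind these proteins, and finally fuses with the lysosome. The transcription factors TFEB and TFE3 switch on many genes of both systems when nutrient signalling through mTORC1 falls. In islet cells the same compartments also break down surplus secretory granules.

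Counts of each gene were summed over the cells of 1 type in 1 monkey, and levels are CPM scaled by TMM, a factor that corrects for a few very abundant RNAs. The method tags transcripts at one end, so levels were not divided by length, and levels of different genes are not ranked against each other. Differences between types were tested within monkeys, with the monkey as a block, by the edgeR quasi-likelihood test across all genes. A gene is called higher or lower when its p-value, adjusted by the Benjamini-Hochberg method over all genes tested, was under 0.05. In the comparisons between types 43 members passed the filter on low counts. CTSZ, with 70 UMIs in all cells together, did not.

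The members differed in how far their level varied between monkeys. In α-cells the coefficient of variation over the 16 monkeys was 11.1% for ATP6V1H, a subunit of the proton pump that acidifies lysosomes, 12.2% for ATP6AP2 and 12.9% for CTSB. It was 96.8% for CTSH, a cathepsin with aminopeptidase activity. The CTSH level in α-cells ran from 8.00 CPM (old male 4) through a median of 17.0 to 98.7 (young male 3), and in β-cells from 1.84 (young female 1) through 17.3 to 116 (young male 1). The monkeys with the highest CTSH were thus not the same in the 2 types. GABARAP, an ATG8-family protein, had nearly one level in the 4 types, at 1218 ± 215 CPM in α-cells, 1189 ± 255 in β-cells (n = 16 each), 1228 ± 272 in δ-cells (n = 11) and 1190 ± 204 in PP-cells (n = 6). CTSH and ATP6V1H were picked for this description after their values were seen.

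β-cells differed from α-cells in 10 of the 43 members. TFEB, TAX1BP1, ATP6AP2, ATP6V0A1, CTSB and CTSD were higher in β-cells, and CTSS, CTSC, GRN and CTSA were lower. The 6 higher members are 14% of those tested, where 8.66% of all 12899 genes were called higher, and the 4 lower members are 9.3%, where 16.3% of all genes were called lower. The median log2 fold change was 0.10 over the members and -0.11 over all genes. The balance of directions moved with the scaling, with 3 higher and 7 lower under upper-quartile normalization, and 8 higher and 3 lower when the hormone genes were left out of the counts. Of all genes, 983 of 12899 were higher and 2348 lower in the first of these settings. In the second 1307 of 12883 were higher and 1940 lower.

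**Figure D1:**
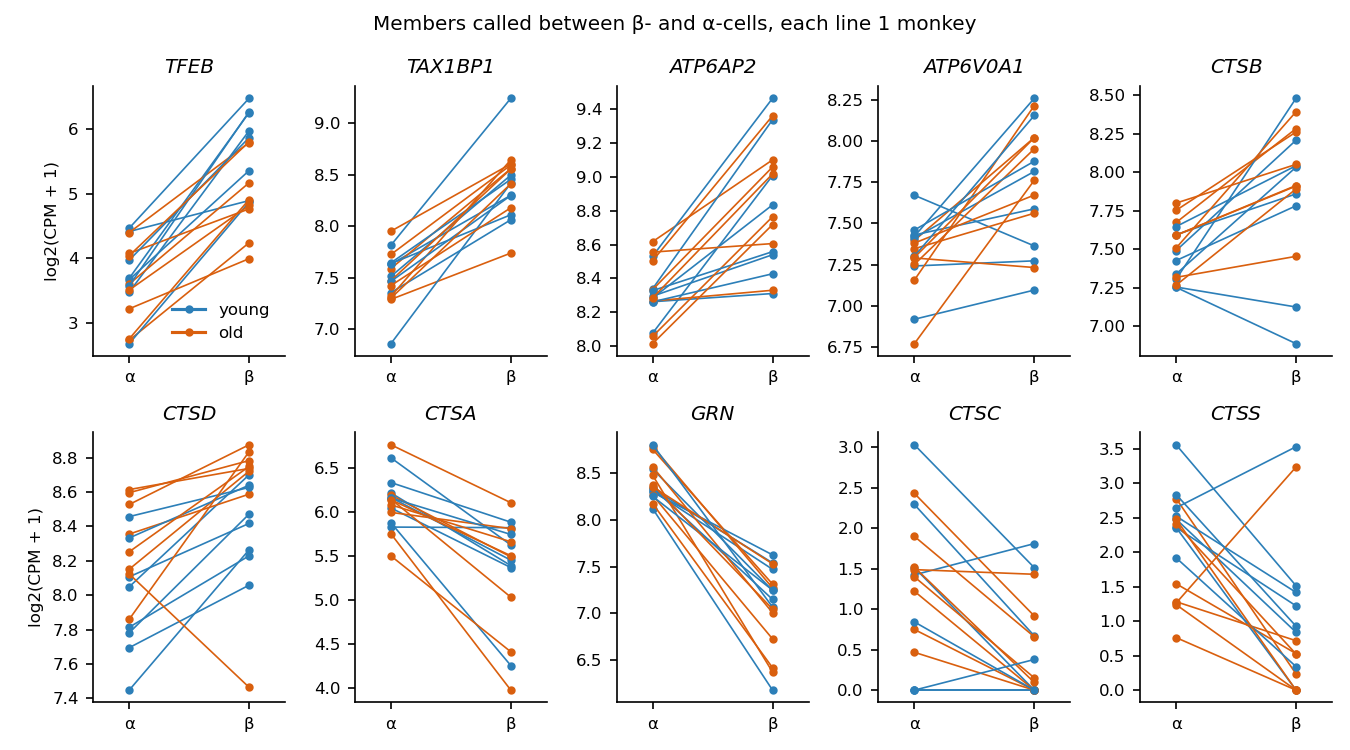
Level of the 10 members called between β- and α-cells, as log2(CPM + 1) on the vertical axis, with α-cells left and β-cells right and each line 1 of 16 monkeys (blue young, orange old). Every line rises for TFEB, TAX1BP1 and ATP6AP2, and every line falls for GRN and CTSA. The lines of CTSC and CTSS cross, with many β-cell values near 0.

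TFEB, the transcription factor named above, was the member with the largest rise in β-cells. Its level in α-cells ran from 5.44 CPM (young male 3) through a median of 11.5 to 21.1 (young female 3), and in β-cells from 15.0 (old male 2) through 37.5 to 87.7 (young female 3). The 2 ranges overlapped a little, but every one of the 16 monkeys had more TFEB in its β-cells. The log2 fold change was 1.81 ± 0.34 (SE, adjusted p = 2.94e-05). Over monkeys, 20.6% ± 8.36 (SD) of α-cells and 45.7% ± 14.9 of β-cells held a TFEB UMI, and after each cell was thinned to 10000 UMIs the shares were 7.22% ± 3.32 and 22.6% ± 10.3. TFE3, its relative, had 11.4 ± 3.73 CPM in α-cells and 8.22 ± 3.55 in β-cells and was not called (log2 fold change -0.52 ± 0.40, adjusted p = 0.389).

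Of the 4 cargo receptors, TAX1BP1, which ties ubiquitin-marked cargo to the growing autophagosome, was higher in β-cells. It ran from 115 CPM (young male 4) through 179 to 247 in α-cells, and from 213 through 346 to 604 (young male 3) in β-cells, and was higher in β-cells of 16 of 16 monkeys. The log2 fold change was 0.92 ± 0.15 (adjusted p = 2.09e-06). SQSTM1 (p62), the best known receptor of this kind, had 405 ± 108 CPM in α-cells and 499 ± 133 in β-cells and was above its α-cell level in 12 of 16 monkeys. Its difference of 0.30 ± 0.12 just missed the threshold (adjusted p = 0.0613) and was called when the hormone genes were left out of the counts (adjusted p = 0.0154). It was also called with DESeq2 (0.045), limma (0.0209), cells over 2000 genes and 20000 UMIs (0.0479) and at least 10 cells per monkey (0.0217). Leaving out old female 1, old female 2, old male 2 or young male 2 alone also brought the call (0.0282 to 0.0466). NBR1 and OPTN were not called either, with adjusted p-values of 0.875 and 0.321.

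Among the ATG8 family, none of the 4 members tested was called. MAP1LC3B had 218 ± 40.0 CPM in α-cells and 295 ± 59.1 in β-cells, with more in β-cells of 15 of 16 monkeys and an adjusted p of 0.0766 (log2 fold change 0.43 ± 0.18). It was called with the hormone genes left out (adjusted p = 0.0367) and with limma (0.0103). The same held with at least 10 cells per monkey (0.0349) and without young male 3 (0.0376). MAP1LC3A had the opposite sign at -0.30 ± 0.16 (adjusted p = 0.183). GABARAPL2 differed by 0.09 ± 0.12 (adjusted p = 0.647) and GABARAP by -0.04 ± 0.10 (adjusted p = 0.804), a sign that turned when the hormone genes were left out and with limma.

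Subunits and partners of the V-ATPase, the proton pump of the lysosome and of secretory granules, split in the same comparison. ATP6AP2, the accessory subunit also known as the prorenin receptor, ran from 258 CPM through 312 to 392 in α-cells and from 316 through 445 to 706 in β-cells, and was higher in β-cells of 16 of 16 monkeys (0.54 ± 0.14, adjusted p = 0.00231). ATP6V0A1, part of the membrane sector, ran from 108 through 159 to 203 in α-cells and from 136 through 220 to 306 in β-cells (0.45 ± 0.17, adjusted p = 0.0371, higher in 14 of 16). ATP6V0D1, ATP6V1H and ATP6AP1 were not called. ATP6AP1, the other accessory subunit, had 541 ± 80.8 CPM in α-cells and 532 ± 108 in β-cells, and 8 monkeys lay on each side.

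The 7 cathepsins tested moved both ways. CTSD, the main aspartic protease of the lysosome, ran from 174 CPM (young male 2) through 280 to 391 in α-cells and from 176 (old male 2) through 396 to 468 in β-cells. It was higher in β-cells of 15 of 16 monkeys (0.41 ± 0.14, adjusted p = 0.0251). CTSB, a cysteine protease, ran from 152 through 180 to 222 in α-cells and from 117 through 250 to 356 in β-cells, higher in 14 of 16 (0.43 ± 0.16, adjusted p = 0.0371). CTSA, a carboxypeptidase that also stabilises the sialidase NEU1, was lower in β-cells of all 16 monkeys, with 69.9 ± 15.7 CPM in α-cells and 42.8 ± 15.1 in β-cells (-0.75 ± 0.28, adjusted p = 0.0378).

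CTSS and CTSC are cysteine proteases best known from immune cells, and both were low. CTSS ran from 0.70 CPM (old male 2) through 4.22 to 10.8 (young male 3) in α-cells and from 0 through 0.54 to 10.5 (young female 3) in β-cells. It was lower in β-cells of 14 of 16 monkeys (-2.52 ± 0.57, adjusted p = 5.55e-04). CTSC was at 1.89 ± 1.92 CPM in α-cells and 0.54 ± 0.80 in β-cells (-2.23 ± 0.69, adjusted p = 0.012). Its levels rested on 586 UMIs in α-cells and 55 in β-cells. CTSC was not lower in the β-cells of young females 2 and 3 and young males 2 and 4. The summed RNA of 12 immune markers, from PTPRC to C1QC, was also lower in β-cells. It ran from 9.40 CPM through 23.3 to 251 in α-cells and from 5.21 through 14.9 to 49.2 in β-cells, and was higher in the α-cells of 13 of 16 monkeys, and the mean over monkeys was above 0 for each of the 12 markers in both types. Without the 642 cells that held 5 or more UMIs of these markers CTSS was still called lower, while CTSC was not (-1.65 ± 0.77, adjusted p = 0.118).

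GRN, progranulin, a secreted and lysosomal glycoprotein, had the smallest adjusted p of all members. It ran from 278 CPM (young male 3) through 326 to 447 (young female 4) in α-cells and from 71.4 (young male 3) through 146 to 197 (young male 1) in β-cells. The ranges did not overlap, and the level was lower in β-cells of 16 of 16 monkeys (-1.34 ± 0.18, adjusted p = 6.52e-08). PSAP, the precursor of the saposins that help enzymes digest sphingolipids, was the next of this group at 870 ± 170 CPM in α-cells and 716 ± 144 in β-cells, and was not called (-0.29 ± 0.11, adjusted p = 0.0539). None of GAA, HEXA, MANBA and NEU1 was called.

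Of the 3 membrane proteins, none was called. LAMP2, a main glycoprotein of the lysosomal membrane, had 175 ± 33.0 CPM in α-cells and 214 ± 84.6 in β-cells with 8 monkeys on each side (0.24 ± 0.19, adjusted p = 0.392). LAMP1 was low, at 6.95 ± 2.24 and 10.8 ± 4.68 CPM (0.62 ± 0.42, adjusted p = 0.319). MCOLN1, the calcium channel of the lysosome, was at 21.4 ± 6.04 and 28.0 ± 14.9 CPM (0.32 ± 0.35, adjusted p = 0.572). None of the 12 members of the core autophagy machinery, from ULK1 to WIPI2, was called, although 9 of the 12 had a positive log2 fold change and their median was 0.255.

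The 10 calls between β- and α-cells did not rest equally on single monkeys. Those of TFEB, TAX1BP1, ATP6AP2, GRN, CTSS and CTSC remained without any of the 16 monkeys. The CTSD call was lost without old male 4 or young female 3 (adjusted p up to 0.0664). The ATP6V0A1 call was lost without old females 1 and 4, old males 1 and 3, young female 2 or young male 4, each alone (up to 0.0662), and the CTSB call without old females 3 and 4, old males 1 and 3, young female 3 or young males 1 and 3 (up to 0.0805). The CTSA call was lost without any one of 9 monkeys, which were old females 2, 3 and 4, old males 1 and 2, young females 1 and 2 and young males 2 and 4 (up to 0.0776). The log2 fold change of every one of the 10 genes kept its sign in these fits. Of the other alternative settings, TFEB, TAX1BP1, ATP6AP2 and GRN were called in 13 of 13. ATP6V0A1 and CTSB were each called in 7 of 13, and both calls were lost without the cells with 2 strong hormones (adjusted p = 0.084 and 0.131), without cells whose leading hormone was weak, with cells past the 95th UMI percentile dropped, with no filter on low counts and with upper-quartile normalization. The ATP6V0A1 call was also lost without the cells with immune RNA, and that of CTSB after thinning. CTSD was called in 9 of 13, not with upper-quartile normalization, no filter, thinning or no block of the monkeys. CTSA was called in 10 of 13, not when the hormone genes or the cells past that percentile were left out or without the block. CTSC and CTSS were called in 9 of 11 and 10 of 11, and neither was called without the block (adjusted p = 0.051 and 0.117).

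**Figure D2:**
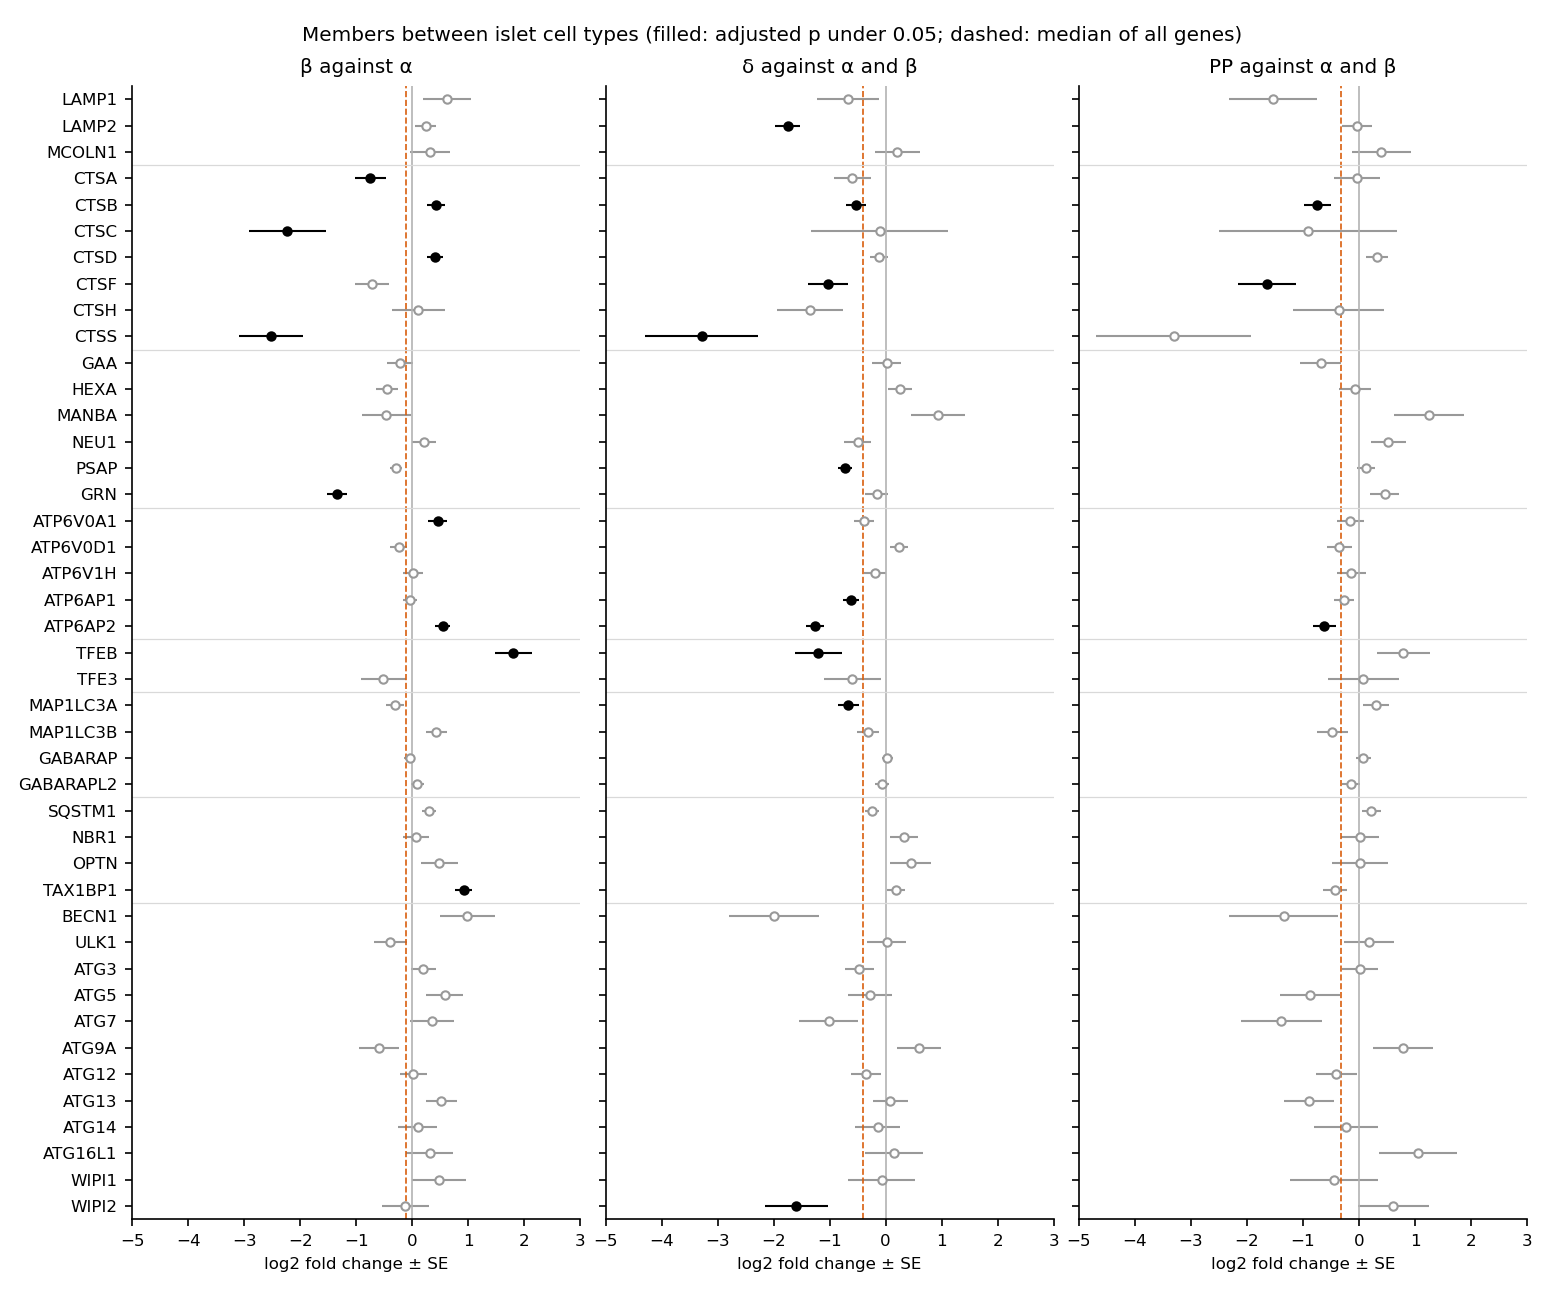
Log2 fold change ± SE (horizontal axis) of the 43 members in 3 comparisons between cell types, ordered by role and separated by grey lines, with filled points for members called at an adjusted p under 0.05 and a dashed line at the median of all genes. β-cells have called members on both sides of 0, while all 10 called members of δ-cells and all 3 of PP-cells lie below 0.

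δ-cells were lower than the mean of α- and β-cells in 10 members and higher in none. The 10 members were CTSS, LAMP2, WIPI2, ATP6AP2, TFEB, CTSF, PSAP, MAP1LC3A, ATP6AP1 and CTSB. They are 23.3% of those tested, where 15.5% of all genes were called lower and 4.09% higher. All genes together were shifted in this comparison, with a median log2 fold change of -0.41, against -0.29 over the members. This shift was -0.10 with DESeq2, which called 4 members higher and 8 lower, and 1131 and 1504 of all 12648 genes tested. δ-cells were also shallower, with a median of 47573 UMIs per cell against 68716 in α-cells and 78172 in β-cells. RNA of the acinar marker CPB1, a digestive enzyme, ran from 57.7 through 311 to 1192 CPM (TMM-scaled) in the 11 δ-cell sums. Its median was 1.79 CPM in α-cells and 1.11 in β-cells, where the highest value was that of young female 2, at 556 and 98.5 CPM. The medians of CPA1 and PNLIP, the other acinar markers with a row, were 0 in δ-cells and under 1 CPM in α- and β-cells. The part of depth and of this RNA was not tested. With every cell thinned to 10000 UMIs 12 members were called lower and none higher. Of all 9051 genes tested in that setting, 1413 were lower and 400 higher. Without the cells with 2 strong hormones 6 of 43 members were called lower, a share near that of all genes. Of all 13098 genes tested in that setting, 1895 were lower and 530 higher. The calls of CTSS, WIPI2, TFEB, CTSF and CTSB were lost in it (adjusted p from 0.0583 to 0.115).

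LAMP2 stood furthest from its level in the other types among the abundant members. In the 11 monkeys with δ-cells it ran from 29.1 CPM (young male 1) through 48.8 to 118 (young female 4), against 117 to 231 in α-cells and 125 to 426 in β-cells of the 16 monkeys. All 11 monkeys had less LAMP2 in δ-cells than in the mean of their α- and β-cells. The log2 fold change was -1.75 ± 0.22 (adjusted p = 2.9e-08), or -1.34 relative to the median gene. Over monkeys, 60.7% ± 15.3 of δ-cells held a LAMP2 UMI, or 31.6% ± 19.6 after thinning, and in α-cells the shares were 87.7% ± 7.48 and 59.9% ± 10.3.

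ATP6AP2, which was higher in β- than in α-cells, was lowest in δ-cells, from 74.8 CPM (old male 4) through 152 to 302 (young male 3). All 11 monkeys had less than in the mean of their α- and β-cells (-1.26 ± 0.16, adjusted p = 2.48e-08, -0.86 relative to the median gene). PSAP ran from 98.7 CPM (young female 4) through 482 to 927 (old female 1) in δ-cells, again below the mean of the other types in 11 of 11 (-0.72 ± 0.12, adjusted p = 1.8e-05). ATP6AP1 ran from 125 through 367 to 550 and was lower in 10 of 11 (-0.62 ± 0.14, adjusted p = 8.17e-04). The PSAP and ATP6AP1 differences include the shift of all genes, whose median was -0.41. LAMP2, ATP6AP2, PSAP and ATP6AP1 were called lower in δ-cells against α-cells alone, against β-cells alone and without any single monkey.

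MAP1LC3A was at 119 ± 57.8 CPM in δ-cells against 205 ± 71.5 in α-cells and 166 ± 58.7 in β-cells (-0.67 ± 0.18, adjusted p = 0.00713), and was not called against β-cells alone. CTSB was at 151 ± 59.6 CPM (-0.53 ± 0.17, adjusted p = 0.0241) and CTSF, another cysteine cathepsin, at 19.9 ± 15.1 CPM against 44.1 ± 10.4 in α-cells and 27.2 ± 7.71 in β-cells (-1.03 ± 0.36, adjusted p = 0.0386). Relative to the median gene the CTSB difference was -0.12. Those of MAP1LC3A and CTSF include the shift of all genes, whose median was -0.41. The CTSB and CTSF calls were both lost without old female 2, without young female 2 and without young male 2. The CTSB call was also lost without young male 1, and the CTSF call without old male 2, young female 3 or young male 3, with adjusted p-values of up to 0.0806 and 0.0976. Under the other alternative settings CTSB and CTSF were each called in 9 of 15, and MAP1LC3A in 14 of 15.

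TFEB was high in 1 δ-cell sum and near 0 in several. It was 79.6 CPM in old female 1, 39.3 in young female 3, and 0 in young female 4 and old male 2, with a median of 4.36. The test gave -1.20 ± 0.42 (adjusted p = 0.0354) against the mean of α- and β-cells and -2.10 ± 0.45 (adjusted p = 4.76e-04) against β-cells alone, and TFEB was not called against α-cells alone. Without any one of 7 monkeys, old female 2, old male 2, young females 1 and 4 or young males 1, 2 and 3, the first of these calls was lost (adjusted p up to 0.0806). WIPI2, which recruits the lipid-linking machinery to the growing membrane, was at 0 in 6 of the 11 δ-cell sums and ran to 28.4 CPM (-1.59 ± 0.56, adjusted p = 0.0367), and its call was lost without old female 1, young females 1, 3 and 4, or young males 1, 2 and 3 (up to 0.0812). Under the other alternative settings TFEB and WIPI2 were each called in 7 of 15. CTSS rested on 2 UMIs in the δ-cells of these monkeys. Its pooled level was 0.0961 of that in α-cells (95% exact interval from 0.0116 to 0.348, counting error only), and it was called in 8 of 13 other settings. It was not called with DESeq2 (-1.63, adjusted p = 0.144), without the cells with 2 strong hormones (0.0827), with at least 10 cells per monkey (0.189), against β-cells alone (0.19) or without the cells with immune RNA (0.124).

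**Figure D3:**
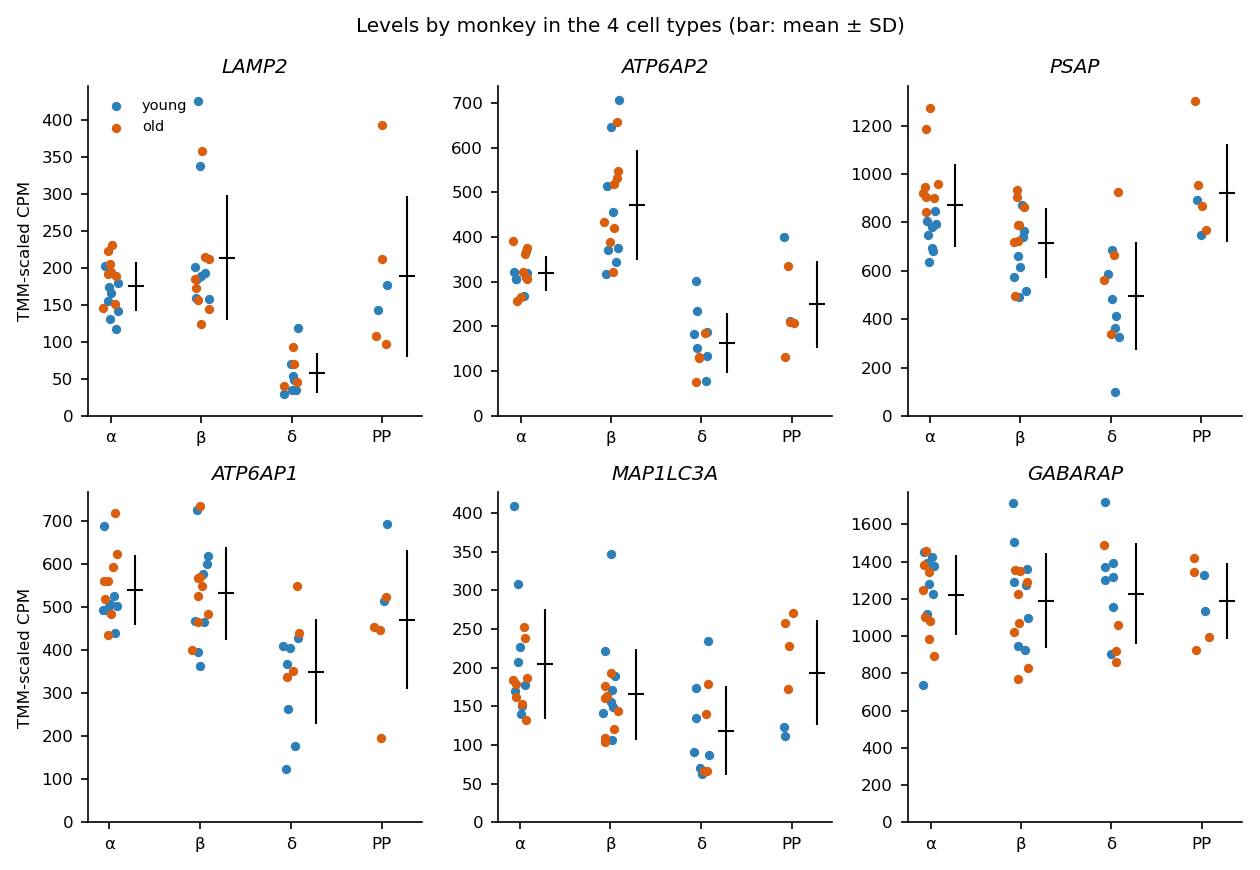
TMM-scaled CPM (vertical axis, from 0) of 6 members in α-, β-, δ- and PP-cells, with each point 1 monkey (blue young, orange old) and a bar for the mean ± SD. LAMP2, ATP6AP2, PSAP, ATP6AP1 and MAP1LC3A are lowest in δ-cells, while the mean of GABARAP lies between 1189 and 1228 CPM in every type.

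PP-cells, summed in 6 monkeys, were lower than the mean of α- and β-cells in CTSF, CTSB and ATP6AP2 and higher in none. These are 7.0% of the members, where 6.34% of all genes were called lower and 3.59% higher, so that the share lies near that of all genes. CTSF was 36.5 CPM in young male 1, 18.1 in old male 4, 14.6 in old female 1, 8.65 in old female 2, 5.10 in old male 2 and 0 in young male 4, below the other types in 6 of 6 (-1.64 ± 0.52, adjusted p = 0.0335). CTSB was at 132 ± 69.8 CPM, also lower in 6 of 6 (-0.74 ± 0.24, adjusted p = 0.0355), and ATP6AP2 at 250 ± 97.9 CPM, lower in 5 of 6 (-0.62 ± 0.21, adjusted p = 0.0443). The median over all genes was -0.31 here. The CTSF call was lost without old female 2 or young male 4 (adjusted p up to 0.0928), and the CTSB call without old male 2, old male 4 or young male 1 (up to 0.0869). The ATP6AP2 call was lost without any of 7 monkeys, namely old females 3 and 4, the 4 old males and young male 1 (up to 0.113). Of these, old females 3 and 4 and old males 1 and 3 gave no PP-cell sum. Without each of them the adjusted p was 0.0503 to 0.0517, just past the threshold. Only old female 2, with 33, had 10 or more PP-cells, so the setting with at least 10 cells per monkey cannot decide on PP-cells. Without the cells with 2 strong hormones the CTSF and CTSB calls were lost (adjusted p = 0.0641 and 0.158). Of 15 other settings CTSF and CTSB were each called in 11 and ATP6AP2 in 9.

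GRN and TAX1BP1, which differed most surely between α- and β-cells, had mean levels in PP-cells near those in α-cells. For GRN the means were 326 ± 183 CPM in PP-cells (n = 6) and 346.5 ± 53.8 in α-cells (n = 16). Single PP-cell sums of GRN lay above and below its α-cell range of 278 to 447 CPM. GRN was 548 CPM in young male 1, 455 in old female 1, 406 in old female 2, 311 in old male 4, 186 in young male 4 and 51.0 in old male 2. Against β-cells alone GRN was called higher (1.13 ± 0.27, adjusted p = 0.00221) and TAX1BP1, at 186 ± 72.9 CPM, lower (-0.89 ± 0.23, adjusted p = 0.00464), and neither was called against α-cells alone. TFEB was called higher in PP- than in α-cells (1.70 ± 0.50, adjusted p = 0.0303) although its 6 sums ran from 0 to 203 CPM. In δ-cells, the same comparison with α-cells alone called TAX1BP1 higher (0.64 ± 0.17, adjusted p = 0.00494) and GRN lower (-0.83 ± 0.22, adjusted p = 0.00406). These 4 comparisons share the α- or β-cell sums, and the genes were picked from them after their values were seen.

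Old and young monkeys were then compared within each type, with sex in the model, to ask whether these genes change with age in a given islet cell. No member was called in any type. In α-cells 43 members were tested and 0 called, as were 0 of all 12916 genes (0%), while 6 members and 886 genes had an unadjusted p under 0.05. In β-cells 0 of 41 members were called, against 5 of 10628 genes (0.047%), and 3 members and 589 genes had an unadjusted p under 0.05. In δ-cells and PP-cells 0 of 32 and 0 of 36 members were called, and none of the 6484 and 6568 genes (0% each), with 3 members in each under 0.05 unadjusted and 209 and 394 genes. DESeq2 and limma also called no member in the 4 types. A lack of calls does not show a lack of change. In simulated counts the test recovered 40% of log2 fold changes of 1 in α-cells and 29% in β-cells.

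**Figure D4:**
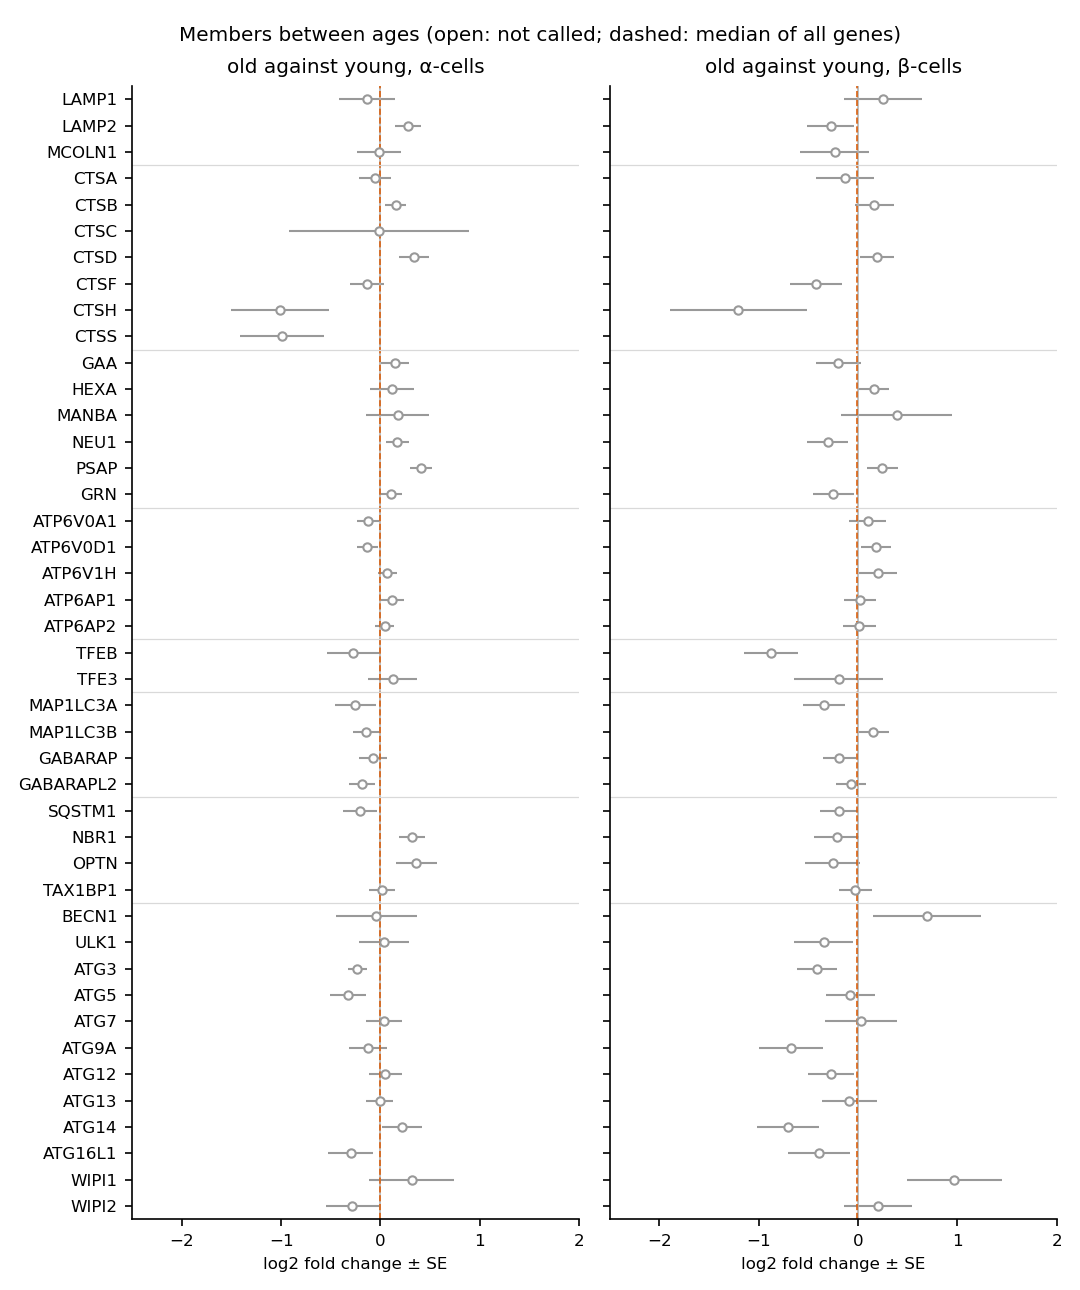
Log2 fold change ± SE of old against young (horizontal axis) for the members tested in α-cells and β-cells, ordered by role as above, with a dashed line at the median of all genes. All points are open because none was called, and PSAP in α-cells and TFEB in β-cells lie furthest from 0 in units of their SE.

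The member of smallest p in α-cells was PSAP. It ran from 638 CPM (young female 4) through 763 to 848 (young male 3) in young monkeys and from 841 (old male 1) through 933 to 1274 (old female 1) in old ones. All 8 old monkeys lay above the young median, and the ranges overlapped only at 841 to 848 CPM. The log2 fold change was 0.41 ± 0.11 (unadjusted p = 0.00151, edgeR adjusted p = 0.535), so the difference did not pass over all genes. NBR1, a cargo receptor, was at 70.9 ± 5.24 CPM in young and 88.9 ± 24.4 in old α-cells (0.32 ± 0.13, adjusted p = 0.705).

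On the other side in α-cells, ATG3, the enzyme that transfers ATG8 proteins onto lipid, was at 125 ± 14.7 CPM in young and 107 ± 10.3 in old monkeys, with all 8 old monkeys under the young median (-0.23 ± 0.10, adjusted p = 0.705). CTSS was at 5.31 ± 2.41 and 2.69 ± 1.92 CPM (-0.99 ± 0.42, adjusted p = 0.705). The summed immune markers also had a lower median in old than in young α-cells, at 20.2 against 42.2 CPM, and their part in the CTSS values was not tested.

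In β-cells the member of smallest p was TFEB, the gene that was high in this type. It ran from 28.3 CPM (young male 3) through 59.5 to 87.7 (young female 3) in young monkeys and from 15.0 (old male 2) through 28.1 to 54.8 (old female 4) in old ones. All 8 old monkeys lay under the young median, and the ranges overlapped between 28.3 and 54.8 CPM. The log2 fold change was -0.88 ± 0.27 (unadjusted p = 0.00382, adjusted p = 0.521). ATG14, a subunit of the lipid kinase complex that starts autophagosomes, was at 27.8 ± 12.1 and 16.8 ± 5.76 CPM (-0.71 ± 0.31, adjusted p = 0.883).

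In the positive direction in β-cells, WIPI1, a lipid-binding protein of the growing membrane, was at 6.87 ± 5.61 CPM in young and 13.8 ± 3.69 in old monkeys (0.97 ± 0.48, adjusted p = 0.908), and PSAP was at 654 ± 131 and 777 ± 138 (0.24 ± 0.16, adjusted p = 0.969). In α-cells TFEB was at 13.3 ± 5.27 CPM in young and 11.6 ± 5.17 in old monkeys. The difference between the age effects of β- and α-cells on TFEB was -0.62 ± 0.33 (adjusted p = 0.856).

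**Figure D5:**
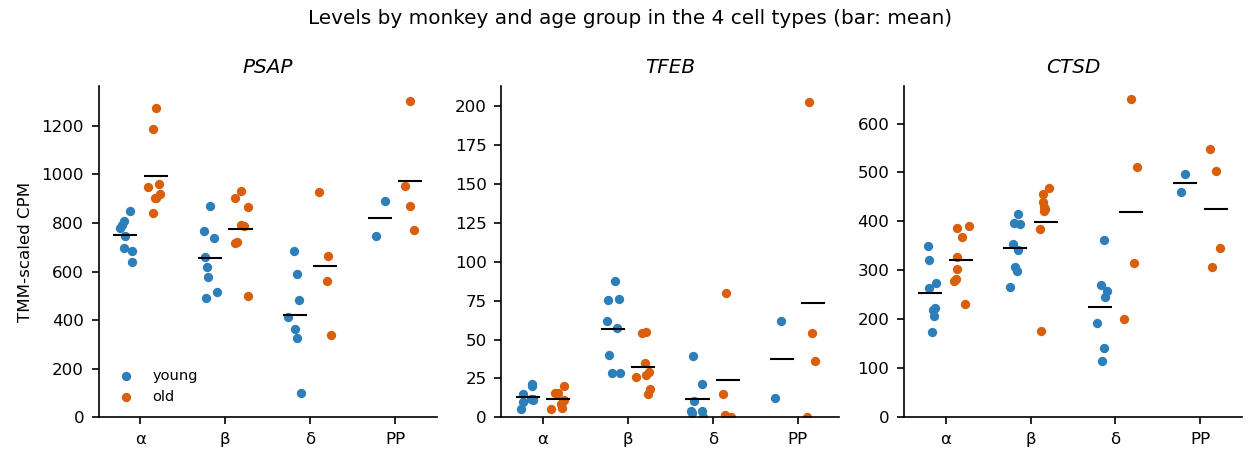
TMM-scaled CPM (vertical axis, from 0) of PSAP, TFEB and CTSD in 4 cell types, each point 1 monkey (blue young, orange old) and each bar the mean of an age group. In α-cells the old PSAP values start at 841 CPM where the young ones end at 848, and in β-cells all 8 old TFEB values lie under the young median of 59.5.

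In δ-cells CTSD was 200, 315, 512 and 650 CPM in the 4 old monkeys and ran from 115 through 246 to 362 in the 7 young ones (0.99 ± 0.41, adjusted p = 1). GRN was 204, 255, 290 and 323 CPM in old monkeys and ran from 75.7 through 155 to 212 in young ones (0.86 ± 0.42, adjusted p = 1). The ranges overlapped for both genes, with 2 of 4 old values of CTSD and 3 of 4 of GRN above every young value. ULK1, the kinase that starts autophagy, was 5.90, 8.11, 8.87 and 42.5 CPM in old and ran from 14.3 through 39.2 to 233 (young male 1) in young monkeys (-2.26 ± 0.99, adjusted p = 1). The other member that the rule names in δ-cells was ATG16L1, part of the complex that attaches ATG8 proteins, at 36.7 ± 45.5 CPM in young and 12.4 ± 13.5 in old monkeys (-1.56 ± 1.27, adjusted p = 1). Its sign turned with at least 10 cells per monkey (1.41), and without single monkeys the value ran from -2.33 to -0.61. Those of CTSD and ULK1 ran from 0.49 to 1.20 and from -2.91 to -1.56.

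In PP-cells the 2 young monkeys were both male, and age and sex are only partly separable there. NEU1, the sialidase, was 184 and 340 CPM in young and 40.8, 63.3, 91.9 and 141 in old monkeys (-2.26 ± 0.84, adjusted p = 0.731). CTSA, its partner, was 75.8 and 116 CPM in young and 0, 25.5, 31.0 and 79.4 in old monkeys (adjusted p = 0.812). ATG12 was 8.45 and 30.9 CPM in young and 10.2, 118, 205 and 303 in old monkeys (adjusted p = 0.769), and ATG16L1 was 2.81 and 4.23 in young and 6.03, 18.7, 117 and 121 in old (adjusted p = 0.769). The age groups overlapped for CTSA and ATG12. They did not for NEU1, ATG16L1 and MAP1LC3A, 3 of the 36 members tested (8.33%). The share of all genes without overlap was not counted, so the 3 are not read as standing out. With 2 young and 4 old monkeys such a split says little, and the test called 0% of all genes. The ATG12 fold change of 2.53 ± 1.06 turned to -0.81 without old male 4 and to -0.82 without the cells with 2 strong hormones, and that of CTSA ran from -8.90 to -1.82 without single monkeys.

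The age effect was also compared between the sexes and between α- and β-cells. No member was called in these interaction tests, against 1 of 14146 genes (0.00707%) for sex in α-cells, 0 of 11693 (0%) for sex in β-cells and 0 of 13322 (0%) for cell type. At an unadjusted p under 0.05 stood 0, 1 and 3 members, and 793, 495 and 806 genes. The 1 member for sex in β-cells was CTSH, at 66.3 ± 51.9 CPM in young males, 11.7 ± 6.13 in old males, 29.3 ± 29.9 in young females and 30.6 ± 21.9 in old females (n = 4 each), with a male minus female difference in the age effect of -2.63 ± 1.19 (adjusted p = 1). In α-cells the same difference for CTSH was -1.78 ± 0.88 (adjusted p = 0.877). For LAMP2 it was 0.41 ± 0.24 in α-cells (adjusted p = 0.903) and -0.71 ± 0.46 in β-cells (adjusted p = 1). The other members that the rule names were MANBA at -1.07 ± 0.59 and HEXA at 0.75 ± 0.41 in α-cells, and ATP6V1H at 0.66 ± 0.36 and ATG5 at 0.82 ± 0.46 in β-cells. Without single monkeys the CTSH value in α-cells ran from -2.53 (without young female 2) to -0.69 (without young male 3), HEXA from 0.40 to 1.07, LAMP2 in β-cells from -1.0 to -0.28 and ATP6V1H from 0.39 to 0.80.

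Between the cell types, the age effect on ATG14 was -0.88 ± 0.34 in β- minus α-cells (adjusted p = 0.733). ATG14 was at 18.5 ± 3.68 CPM in young and 21.7 ± 7.39 in old α-cells, the other way round from β-cells. For NBR1 the difference was -0.54 ± 0.24 (adjusted p = 0.79), for ATP6V0D1 0.30 ± 0.14 (adjusted p = 0.798) and for WIPI1 1.16 ± 0.60 (adjusted p = 0.852).

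A longer list of 153 other genes of the same systems, of which 139 had a row and 133 were tested, gives the surroundings of the members. In β- against α-cells 12 of them were higher and 20 lower, or 9.02% and 15.0%, close to the shares of all genes. Of 22 glycosidases, sulfatases and lipases 8 were lower in β-cells and 1 was higher, or 36.4% and 4.55%, where 16.3% and 8.66% of all genes were. IDUA, which digests heparan and dermatan sulfate, was at 28.5 CPM in α-cells and 6.91 in β-cells (-2.11 ± 0.34, adjusted p = 2.26e-06), and FUCA1, a fucosidase, was the higher one, at 31.6 and 76.2 CPM (1.20 ± 0.32, adjusted p = 0.0035). Among 18 membrane and transport genes, TPCN2 and TPCN1, 2 calcium channels of endosomes and lysosomes, were lower in β-cells (-2.36 ± 0.33 and -1.97 ± 0.42), and LAPTM4A was higher (0.94 ± 0.14).

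Of 21 other cargo receptors and fusion genes, 4 were higher in β-cells and none was lower, or 19.0% and 0%. Of all genes 8.66% were higher and 16.3% lower. These were VAMP8, CCPG1, BNIP3 and STX17, of which VAMP8 and STX17 are SNAREs of autophagosome-lysosome fusion, CCPG1 is a receptor for the endoplasmic reticulum and BNIP3 one for mitochondria. VAMP8 was at 211 CPM in α-cells and 345 in β-cells (0.69 ± 0.13, adjusted p = 3.11e-05). The largest difference on the longer list was that of SORL1, a sorting receptor between Golgi and endosomes, with 16.3 CPM in α-cells, 410 in β-cells and 197 in δ-cells (β against α 4.76 ± 0.29, adjusted p = 1.41e-19). In δ-cells 2 of the 133 genes were higher (1.5%) and 25 lower (18.8%), where 4.09% and 15.5% of all genes were. The higher ones were SORL1 and LAPTM4B, the latter at 183 CPM in δ-cells against 37.9 in α-cells and 27.8 in β-cells (2.57 ± 0.35). In PP-cells 5 were higher and 6 lower, or 3.76% and 4.51%, where 3.59% and 6.34% of all genes were. With age, 0 of 133 genes were called in α-cells and 0 of 128 in β-cells. The genes named from this list were picked after their values were seen.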

How the data were processed

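Single islet cells were tagged with UMIs by a modified STRT protocol, in which reads cover one end of a transcript. The authors deposited raw UMI counts per gene and cell for 64 libraries, made per the labels with CASAVA 1.8 and TopHat2 2.0.12. A table of cell barcodes was not used here. Spike-in counts (95 sequences, 5.41% of UMIs) were left out. Cells were kept above 800 genes and 10000 UMIs, typed by the highest hormone, and summed per monkey and type where at least 5 cells were present.

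Sums were tested with edgeR 4.0.16 in R 4.3.3 (quasi-likelihood F test, TMM factors, filterByExpr, Benjamini-Hochberg over all genes), with the monkey as a block between types and sex as a covariate for age. Scripts were tested on simulated data first. Of 100 genes given a log2 fold change of 1, 36% were recovered between β- and α-cells. With age 40% were recovered in α-cells and 29% in β-cells. For a log2 fold change of 2 these shares were 72%, 77% and 77%. Alternatives were DESeq2 1.42.0, limma 3.58.1 on mean log2(CPM/10 + 1), other scaling, filters and cell sets, and each monkey left out. No doublet caller was run, and cells above the 95th percentile of UMIs or with 2 hormones were left out as alternatives. The p-values for age, and for sex by age, measure the spread between monkeys. Those from fits with the monkey as a block measure the spread that remains once each monkey's own level is removed. In the comparisons between types the sums of all 4 types shared 1 estimate of that spread.

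The members and all lists were chosen with earlier results of these data known. Named were members with an adjusted p under 0.05 (at most 12 in each direction). For age and interaction comparisons with fewer than 3 calls the 2 members of smallest p in each direction were added, and for β- against α-cells 13 members were named whatever their values. Replicate numbers name monkeys within a group and pair nothing across age groups.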

Additional observations from a re-analysis of the deposited data

Results flagged for a closer look

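In 28 groups of 4 to 8 monkeys, 4 held 1 value that stood apart from the rest by Dixon's criterion, which chance alone meets in about 1 group of 20. CTSS in α-cells was at 10.8 CPM in young male 3, the highest of 8 young monkeys. ATG14 in β-cells was at 28.4 CPM in old male 1, the highest of 8 old monkeys. ULK1 in δ-cells was at 233 CPM in young male 1 among 7 young monkeys and at 42.5 CPM in old male 2 among 4 old monkeys. These δ-cell sums hold 6 and 5 cells.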

How the results depend on the processing

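Of 1753 values of named members under alternatives, 1604 kept their direction and their side of the threshold, 130 were no longer past it, 13 came past it and 6 changed sign, all 6 for members that were not called. Between β- and α-cells 10 members were called, 15 with DESeq2, 19 with at least 10 cells per monkey and 6 without the replicate block of the monkeys. The calls over all genes moved too. Of 12899 genes 1117 were higher and 2105 lower, 1353 and 2595 with DESeq2, and 1190 and 1627 without the block. With at least 10 cells per monkey 1687 of 16026 genes were higher and 3448 lower. In δ-cells the count was 10, and 6 without cells of 2 hormones, where 1895 of 13098 genes were lower and 530 higher. In PP-cells 3 members were called, and 1 without cells with immune RNA, where 536 of 12886 genes were lower and 360 higher. With at least 10 cells per monkey only old female 2 gave PP-cells, so that setting decides nothing there. Leaving out 1 monkey at a time gave 7 to 11 called members in β-cells, 7 to 10 in δ-cells and 1 to 3 in PP-cells. The lowest count in PP-cells came without old male 2, old male 4 or young male 1. In the age and interaction comparisons every alternative that was run called 0 members, and a replicate block of the monkey numbers also called 0 in the 4 age comparisons. Same-numbered monkeys did not deviate together (over r = 0.1 in 2 of 24 pairs in α-cells and 1 of 24 in β-cells). The signs that turned were MCOLN1 in β-cells after thinning (-0.0427), GABARAP in β-cells without hormone genes (0.0285) and with limma (0.0337), ATG16L1 with age in δ-cells with at least 10 cells (1.41), and ATG12 with age in PP-cells without cells of 2 hormones (-0.823) and without old male 4 (-0.806, where leaving out other monkeys gave up to 3.63). The causes were not tested. The share of all called genes that were higher in β-cells was 34.7%, and 40.3% without hormone genes, 42.2% without the block and 63.7% with limma. In δ-cells it was 20.8%, and 42.9% both with DESeq2 and without the block. In PP-cells it was 36.1%, 51.9% with DESeq2 and 53.9% without the block. Age in PP-cells with at least 10 cells per monkey could not be fitted. The sums held 112 δ-, 74 PP- and 4503 α-cells.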
